A study of Mus musculus with 18 samples.

Results

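The genes described here are 42 genes of DNA replication, of 55536 mouse gene IDs counted in the series. They were taken by symbol, through the GENCODE M21 annotation of the counted Ensembl IDs, and all 42 had enough counts to be tested. They fall into 10 roles that follow the order of events at an origin and a fork: origin licensing, the MCM helicase core, activation of the helicase (CMG activation), the clamp and clamp loader, polymerase alpha with primase, polymerases delta and epsilon, deoxynucleotide (dNTP) supply, single-strand binding, Okazaki fragment processing and chromatin assembly.

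The libraries were made from poly(A) RNA of mouse bone marrow cells grown for 4 days under conditions for myelopoiesis, the formation of granulocytes and monocytes. The marrow came from BALB/c mice, either labelled Cysltr1-/-, deficient in a receptor for cysteinyl leukotrienes, or WT, and every sample pooled 3 mice. The 6 groups, of 3 libraries each, were Cysltr1-/- and WT marrow with GM-CSF and EMT6 conditioned medium (50% v/v, taken from a mouse mammary carcinoma line after 24 h), Cysltr1-/- and WT marrow with GM-CSF and IL-6 (40 ng/mL), and Cysltr1-/- and WT marrow with GM-CSF alone. GM-CSF, a growth factor for granulocytes and macrophages, was present in all 6 groups at 40 ng/mL. The sources used here do not say whether the 3 libraries of a group came from separate pools, so that p-values measure the spread between these libraries, which may be technical.

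Replication begins when the origin recognition complex, CDC6 and CDT1 load rings of MCM2 to MCM7 onto DNA before S phase. CDC45 and the GINS proteins join the ring to form the active helicase, after which polymerase alpha primes each strand, and polymerases delta and epsilon, held by the PCNA clamp, copy it. Transcripts of many of these genes rise as cells pass from G1 into S phase under E2F factors, so that in marrow they mark dividing progenitors, while mature granulocytes and macrophages divide little or not at all.

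Annotated genes took 9583728 to 31989342 counts per library, fewest in Cysltr1-/- libraries with EMT6 medium, where reads in no annotated feature were 50.2% ± 0.152 of the total (SD, n = 3). That share was 36.2% ± 1.39 in WT libraries with EMT6 medium and averaged 14.2% to 19.5% in the other groups. Transcripts of Cysltr1 were no fewer under the Cysltr1-/- label: 1271 to 1904 counts were found in Cysltr1-/- and 915 to 1718 counts in WT libraries with GM-CSF alone. A count over the whole gene does not check the allele, and the genotype is used as labelled. In bulk RNA, fewer cells of a type and less RNA per cell cannot be told apart. All 9 myeloid markers examined, among them Lyz2, Mpo and Elane, were lower in Cysltr1-/- than in WT under each culture, with summed levels of 5832 to 6153 CPM in Cysltr1-/- and 10006 to 10359 CPM in WT libraries with GM-CSF alone. The 6 progenitor markers, such as Kit and Cd34, summed to 299 to 312 CPM in Cysltr1-/- and 360.2 to 379 CPM in WT there, and to 314 to 323 CPM in Cysltr1-/- against 287 to 295 CPM in WT with IL-6. With IL-6 they did not move as 1: in Cysltr1-/- 4 were higher than in WT and 2, Myb and Spink2, were lower (adjusted p under 0.05 by edgeR). The 7 B lineage markers summed to 82.0 to 84.0 CPM in Cysltr1-/- and 124 to 132 CPM in WT with GM-CSF alone, and to 199 to 221 CPM in Cysltr1-/- and 330 to 348 CPM in WT with EMT6 medium. Single markers of this list differed: in Cysltr1-/- 1 was higher and 5 lower with GM-CSF alone, and 2 were higher and 4 lower with EMT6 medium, by the same test. The 5 mast and basophil markers summed to 81.2 to 91.9 CPM in Cysltr1-/- and 186 to 199 CPM in WT with GM-CSF alone, where 1 of them was higher and 3 were lower in Cysltr1-/-. Erythroid markers (7) and T and NK markers (6) summed to at most 12.1 and 20.7 CPM in any library. The 6 epithelial and tumour line markers, whose sum is mostly Cdh1, had 49.6 to 64.1 CPM in Cysltr1-/- and 39.8 to 43.3 CPM in WT with EMT6 medium, against 1072 to 1100 CPM in Cysltr1-/- and 818 to 880 CPM in WT with GM-CSF alone. The sum hides that some of these markers were higher with EMT6 medium than with GM-CSF alone. In Cysltr1-/- 4 were higher and 1 lower, and in WT 3 were higher and 2 lower (adjusted p under 0.05 by edgeR). The keratins of this list had at most 2.99 CPM in any library and no background was taken off, so their rise is uncertain. No marker of these lists was at 0 throughout a group. The part of these cell types in the results below was not tested.

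Levels are given as CPM, gene counts relative to library size, on library sizes scaled by TMM. This method aims to centre the bulk of genes between libraries. With EMT6 medium against GM-CSF alone, the median log2 fold change of all genes tested was still 0.83 in Cysltr1-/- and 0.49 in WT. For genes at 5 CPM or more in at least 1 group it was -0.49 in Cysltr1-/- and -0.48 in WT. The 42 genes together had a mean of 972 ± 11.7 CPM in Cysltr1-/- and 1135 ± 13.4 CPM in WT libraries with EMT6 medium, 980 ± 15.1 CPM in Cysltr1-/- and 1339 ± 42.1 CPM in WT with IL-6, and 1158 ± 8.79 CPM in Cysltr1-/- and 1942 ± 21.2 CPM in WT with GM-CSF alone (SD, n = 3 each). WT libraries with GM-CSF alone stood above every other library. The Cysltr1-/- groups with EMT6 medium and with IL-6 overlapped, at 959 to 982 CPM and 964 to 994 CPM, and no other groups did except WT with EMT6 medium (1125 to 1150.3 CPM) and Cysltr1-/- with GM-CSF alone (1148 to 1165 CPM). Gene by gene, the mean was highest in WT with GM-CSF alone for 37 of the 42. It was lowest in Cysltr1-/- with IL-6 for 22, in Cysltr1-/- with EMT6 medium for 15, in WT with EMT6 medium for 4 and in Cysltr1-/- with GM-CSF alone for 1. On library size alone, without TMM, the sums were 1362 ± 9.75 CPM in Cysltr1-/- and 1348 ± 8.11 CPM in WT with EMT6 medium, 910.5 ± 4.95 CPM in Cysltr1-/- and 1124 ± 8.48 CPM in WT with IL-6, and 1060 ± 9.54 CPM in Cysltr1-/- and 1634 ± 17.8 CPM in WT with GM-CSF alone. WT with GM-CSF alone was again the highest group, while the place of the EMT6 medium groups among the others depended on the scaling.

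**Figure D1:**
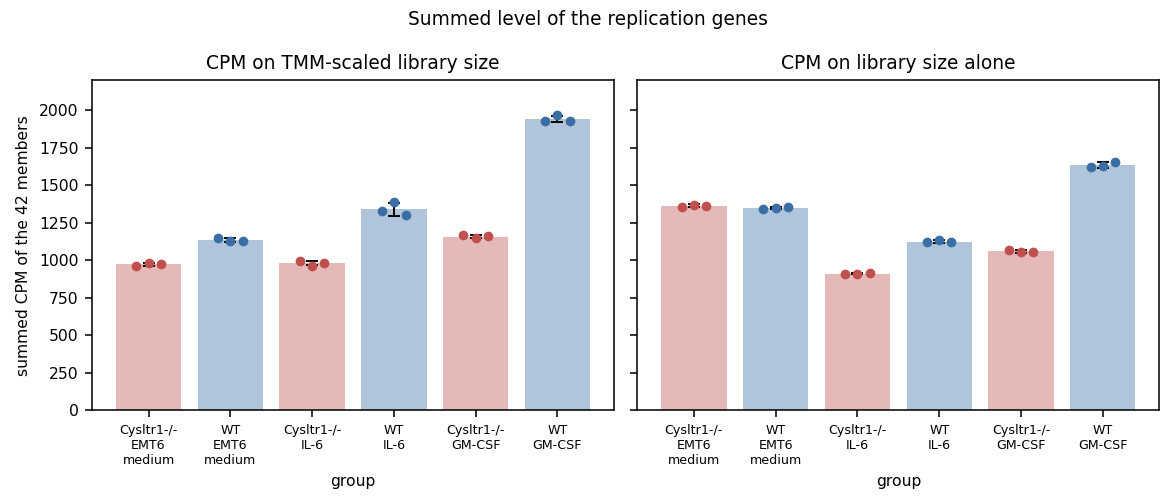
Summed CPM of the 42 replication genes in each library (points), with the mean (bar) and SD of 3 libraries per group, on TMM-scaled library size (left) and on library size alone (right). WT libraries with GM-CSF alone are highest in both panels, and the EMT6 medium libraries lie at 972 and 1135 CPM on the left but at 1362 and 1348 CPM on the right.

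**Figure D2:**
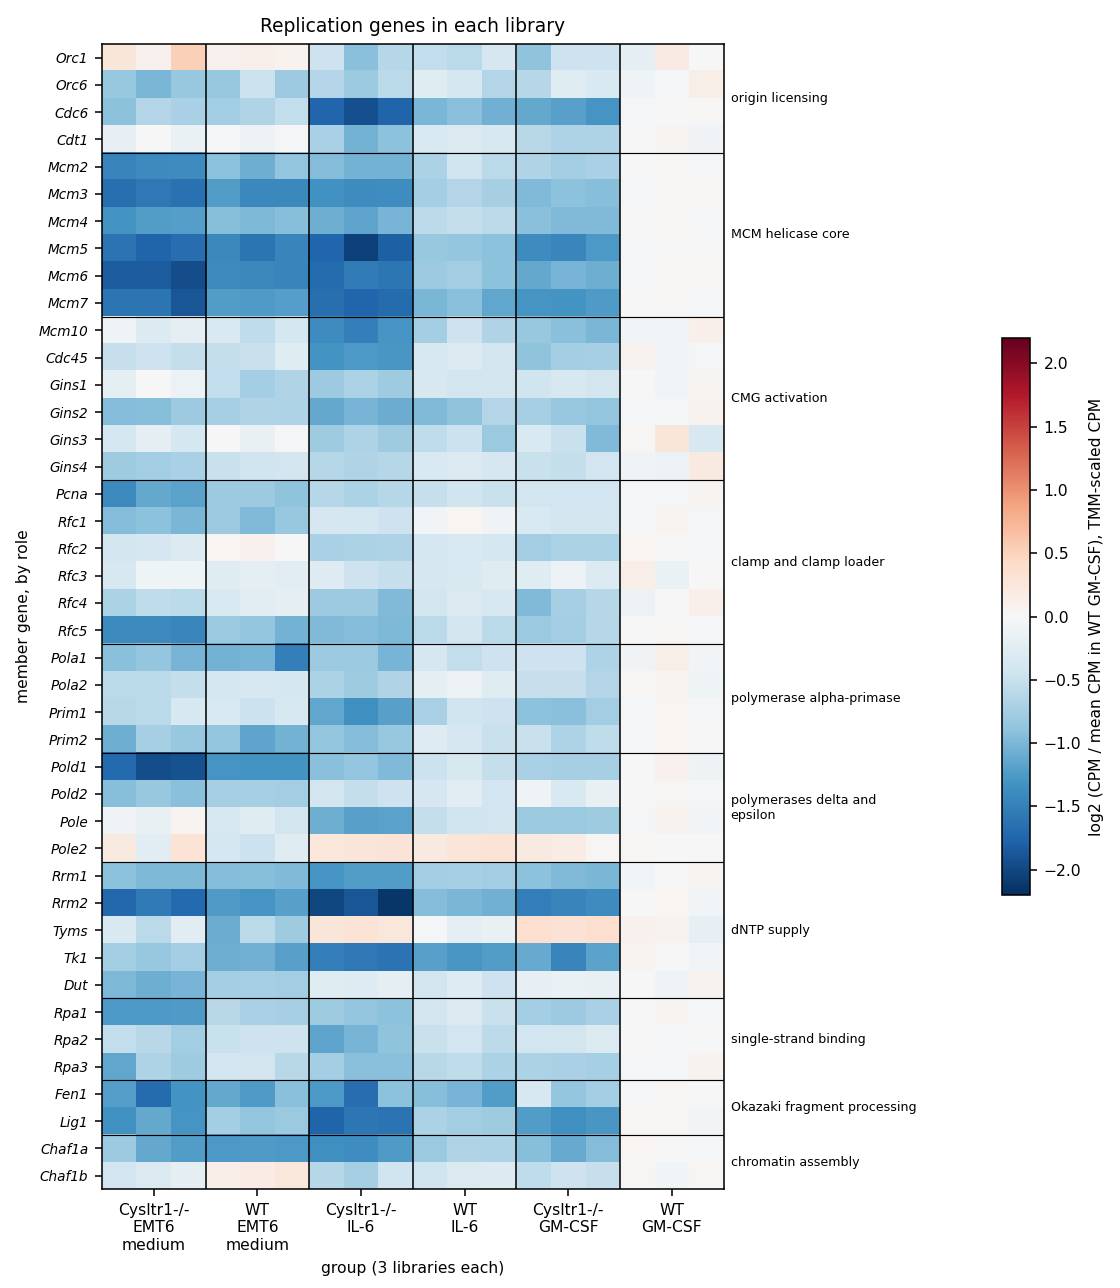
Level of each gene (rows, grouped by role) in each of the 18 libraries (columns, 3 per group) as the log2 ratio of its CPM to its mean CPM in WT libraries with GM-CSF alone; blue is lower and red is higher. The MCM helicase core, Rrm2 and Lig1 are blue across all 5 other groups, while Tyms and Pole2 are red in Cysltr1-/- libraries with GM-CSF alone.

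Within a group the coefficient of variation of a member had a median of 4.51% over the member by group values and a highest value of 26.5%. Between groups the highest mean exceeded the lowest by 1.33-fold (Rfc3) to 4.01-fold (Rrm2), with a median of 2.24-fold. Counts of members per library ran from 18 (Fen1) to 3684 (Pcna). Per kb of merged exon, in WT libraries with GM-CSF alone, Pcna was the highest member at 53.8 CPM per kb and Fen1 the lowest at 1.79 CPM per kb. Counts of 13 members include exons that overlap a gene on the other strand, and no strand setting is given in the sources used here. The longest such overlaps were 4648 bases for Chaf1a with Ubxn6, 2758 bases for Gins2 with Gse1 and 2039 bases for Fen1, so that their counts are uncertain. Pcna and Tyms have annotated pseudogenes that can share reads with them.

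Promoter sequences were read for the members because E2F words near the start site are a known feature of replication genes. RefSeq promoters (assembly GRCm38.p6, 300 bases, 250 before to 50 after the start) were matched by symbol for 35 of the 42, the 7 others being Gins1, Gins2, Gins4, Mcm4, Rfc2, Pole and Prim2. A word TTTCCCGC, TTTGGCGC or TTTCGCGC, on either strand, occurred in the promoters of 13 of the 35 (37.1%), against 2.12% of all 27025 genes with a promoter of the same length. The NF-Y word CCAAT occurred in 22 of the 35 (62.9%), against 41.1% of genes, and the CHR word TTTGAA in 5 of the 35 (14.3%), against 20.2% of genes, both on either strand. By role, the E2F words occurred in 4 of 5 members of the helicase core, 3 of 4 of origin licensing and 0 of 5 of deoxynucleotide supply. A match is a description of the letters in this window. The promoters of Cdc6, Mcm3 and Rfc3 are printed as the first by alphabet, among members with an E2F match, in the licensing, core and clamp roles, and those of Mcm5, Mcm6 and Mcm7, chosen after the matches were seen, complete the core members with a match; capitals mark E2F words, which overlap in Mcm5 and Mcm6.
Cdc6 (chr11:98907901-98908200, plus strand): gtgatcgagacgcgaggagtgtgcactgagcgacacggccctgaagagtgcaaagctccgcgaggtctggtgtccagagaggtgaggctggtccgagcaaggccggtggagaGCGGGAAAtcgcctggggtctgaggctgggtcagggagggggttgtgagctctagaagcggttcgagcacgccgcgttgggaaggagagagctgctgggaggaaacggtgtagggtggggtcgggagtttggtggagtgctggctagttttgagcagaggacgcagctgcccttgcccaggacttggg
Mcm3 (chr1:20820263-20820562, minus strand): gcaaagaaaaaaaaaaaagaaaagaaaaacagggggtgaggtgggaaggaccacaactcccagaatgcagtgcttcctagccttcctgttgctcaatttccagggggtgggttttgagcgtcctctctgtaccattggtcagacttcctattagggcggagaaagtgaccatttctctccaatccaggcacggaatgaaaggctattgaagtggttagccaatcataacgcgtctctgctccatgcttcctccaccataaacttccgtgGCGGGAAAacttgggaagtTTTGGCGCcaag
Mcm5 (chr8:75109259-75109558, plus strand): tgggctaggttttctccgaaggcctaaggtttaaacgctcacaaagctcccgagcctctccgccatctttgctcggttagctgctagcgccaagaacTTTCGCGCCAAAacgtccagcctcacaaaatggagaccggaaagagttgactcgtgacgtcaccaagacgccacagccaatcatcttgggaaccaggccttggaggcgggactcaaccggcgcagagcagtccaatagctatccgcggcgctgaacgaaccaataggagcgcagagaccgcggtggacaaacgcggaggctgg
Mcm6 (chr1:128359656-128359955, minus strand): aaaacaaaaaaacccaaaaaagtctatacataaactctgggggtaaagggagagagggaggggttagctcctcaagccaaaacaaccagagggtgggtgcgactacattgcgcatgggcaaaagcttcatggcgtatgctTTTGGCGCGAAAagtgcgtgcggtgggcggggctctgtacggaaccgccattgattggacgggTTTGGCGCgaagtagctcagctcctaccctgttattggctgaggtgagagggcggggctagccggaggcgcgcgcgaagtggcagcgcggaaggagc
Mcm7 (chr5:138171834-138172133, minus strand): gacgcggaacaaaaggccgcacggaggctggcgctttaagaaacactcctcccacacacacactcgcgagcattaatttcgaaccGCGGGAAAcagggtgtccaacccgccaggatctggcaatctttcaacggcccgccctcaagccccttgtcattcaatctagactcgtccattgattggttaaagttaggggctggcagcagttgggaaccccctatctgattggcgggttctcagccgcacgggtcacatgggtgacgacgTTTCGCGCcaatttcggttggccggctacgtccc
Rfc3 (chr5:151651159-151651458, minus strand): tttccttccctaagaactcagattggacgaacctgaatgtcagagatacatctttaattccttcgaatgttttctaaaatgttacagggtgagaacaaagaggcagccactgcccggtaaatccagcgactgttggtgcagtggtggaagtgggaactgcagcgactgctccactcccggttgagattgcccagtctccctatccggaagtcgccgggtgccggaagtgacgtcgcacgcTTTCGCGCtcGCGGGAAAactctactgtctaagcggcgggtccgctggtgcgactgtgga

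The sequences carry the words at different places relative to the RefSeq start: before it in Cdc6 and Mcm5, and within the transcribed first bases in Mcm3. GENCODE M21 starts Cdc6 earlier, at base 98907801 of chr11, so that its word lies inside the gene as annotated there. The same holds for the words printed for Mcm7 and Rfc3, which it starts at bases 138172422 and 151651242 of chr5. The window of Mcm7 is 1 of its 2 promoters, and the other had 0 E2F words. Mcm2, the remaining core member with a promoter here, had no E2F word in the window.

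In origin licensing, ORC1 and ORC6 are subunits of the origin recognition complex, and CDC6 and CDT1 load the MCM ring. Cdt1 had 60.2, 67.7 and 61.1 CPM in Cysltr1-/- and 66.1, 62.9 and 66.4 CPM in WT libraries with EMT6 medium. For Cdt1 the levels were 41.3, 33.0 and 36.2 CPM in Cysltr1-/- and 53.6, 54.3 and 53.0 CPM in WT with IL-6, and 44.7, 42.5 and 42.3 CPM in Cysltr1-/- and 68.6, 70.8 and 64.0 CPM in WT with GM-CSF alone. Cdt1, the most abundant licensing transcript, was thus lower in all Cysltr1-/- than in all WT libraries with IL-6 or GM-CSF alone, and the genotypes overlapped with EMT6 medium. Cdc6 had 9.31, 11.2 and 10.7 CPM in Cysltr1-/- and 10.3, 11.0 and 12.0 CPM in WT libraries with EMT6 medium. For Cdc6 the levels were 5.25, 4.56 and 5.18 CPM in Cysltr1-/- and 8.68, 9.22 and 8.44 CPM in WT with IL-6, and 8.06, 7.63 and 7.11 CPM in Cysltr1-/- and 17.3, 17.4 and 17.8 CPM in WT with GM-CSF alone. Its genotypes were apart with IL-6 and with GM-CSF alone and overlapped with EMT6 medium. Orc1 had 8.00, 7.18 and 9.62 CPM in Cysltr1-/- and 7.17, 7.26 and 7.05 CPM in WT libraries with EMT6 medium. For Orc1 the levels were 4.88, 3.54 and 4.31 CPM in Cysltr1-/- and 4.60, 4.46 and 5.17 CPM in WT with IL-6, and 3.63, 4.87 and 4.88 CPM in Cysltr1-/- and 5.82, 7.55 and 6.68 CPM in WT with GM-CSF alone. Orc1 was separated by genotype only with GM-CSF alone. For Orc6 the values were 10.5, 13.4 and 12.7 CPM in Cysltr1-/- against 15.1, 15.6 and 17.5 CPM in WT with GM-CSF alone, again without overlap.

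The MCM2 to MCM7 ring is the motor of the replicative helicase. Mcm3 had 30.4, 32.2 and 30.8 CPM in Cysltr1-/- and 40.9, 36.0 and 35.8 CPM in WT libraries with EMT6 medium. For Mcm3 the levels were 38.1, 36.8 and 37.3 CPM in Cysltr1-/- and 57.0, 61.1 and 57.7 CPM in WT with IL-6, and 49.2, 51.3 and 50.3 CPM in Cysltr1-/- and 93.2, 97.5 and 97.4 CPM in WT with GM-CSF alone. The genotypes did not overlap in any culture. Mcm5 had 28.9, 26.1 and 27.9 CPM in Cysltr1-/- and 33.2, 29.2 and 32.4 CPM in WT libraries with EMT6 medium. For Mcm5 the levels were 26.6, 21.4 and 25.7 CPM in Cysltr1-/- and 49.9, 49.2 and 47.4 CPM in WT with IL-6, and 34.1, 32.7 and 37.2 CPM in Cysltr1-/- and 87.8, 89.2 and 89.8 CPM in WT with GM-CSF alone. WT libraries with GM-CSF alone were far above the rest. Mcm6 had 25.5, 25.7 and 23.7 CPM in Cysltr1-/- and 34.6, 34.1 and 33.2 CPM in WT libraries with EMT6 medium. For Mcm6 the levels were 28.2, 31.4 and 30.4 CPM in Cysltr1-/- and 52.3, 53.4 and 49.0 CPM in WT with IL-6, and 41.5, 44.7 and 43.2 CPM in Cysltr1-/- and 87.9, 92.7 and 92.5 CPM in WT with GM-CSF alone. The genotypes of Mcm5 and Mcm6 were apart in each culture. Mcm7 had 25.6, 25.6 and 21.3 CPM in Cysltr1-/- and 33.2, 32.8 and 33.6 CPM in WT libraries with EMT6 medium. For Mcm7 the levels were 24.8, 23.4 and 24.2 CPM in Cysltr1-/- and 39.0, 41.3 and 35.5 CPM in WT with IL-6, and 32.0, 31.6 and 33.1 CPM in Cysltr1-/- and 77.6, 80.0 and 76.9 CPM in WT with GM-CSF alone. In Mcm7, and in Mcm2 and Mcm4, every Cysltr1-/- library lay below every WT library of the same culture. The 6 core genes together had 166 ± 2.71 CPM in Cysltr1-/- and 212 ± 7.91 CPM in WT with EMT6 medium, 187 ± 4.92 CPM in Cysltr1-/- and 296 ± 11.8 CPM in WT with IL-6, and 242 ± 2.57 CPM in Cysltr1-/- and 500.2 ± 7.55 CPM in WT with GM-CSF alone (SD, n = 3). The protein ring holds 1 copy of each. Per kb of merged exon the highest core gene exceeded the lowest by 2.26-fold to 2.72-fold over the 6 groups. On this measure Mcm2 was the lowest throughout and Mcm3 or Mcm4 the highest. Mcm2 also has the longest merged exons of the core, at 6956 bases against 3589 for Mcm4, so its place depends on the length used. Whether the transcripts themselves were at unequal levels was not tested.

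CDC45 and the 4 GINS proteins complete the active helicase, and MCM10 is needed for its activation. Gins4 had 22.4, 22.5 and 23.3 CPM in Cysltr1-/- and 27.2, 28.2 and 29.1 CPM in WT libraries with EMT6 medium. For Gins4 the levels were 24.8, 24.1 and 25.0 CPM in Cysltr1-/- and 30.5, 30.7 and 29.7 CPM in WT with IL-6, and 27.4, 26.7 and 28.6 CPM in Cysltr1-/- and 36.4, 34.9 and 43.8 CPM in WT with GM-CSF alone. Gins4, the most abundant of them, was lower in Cysltr1-/- libraries in each culture. Mcm10 had 19.8, 17.0 and 18.2 CPM in Cysltr1-/- and 16.5, 14.2 and 16.0 CPM in WT libraries with EMT6 medium. For Mcm10 the levels were 8.02, 7.33 and 8.48 CPM in Cysltr1-/- and 12.5, 15.1 and 13.1 CPM in WT with IL-6, and 11.7, 11.0 and 10.3 CPM in Cysltr1-/- and 20.1, 19.9 and 22.4 CPM in WT with GM-CSF alone. Mcm10 was lower in Cysltr1-/- with IL-6 and GM-CSF alone and higher with EMT6 medium, without overlap. It has 7692 exon bases and no background was taken off, so the separation of its libraries with EMT6 medium is uncertain. Cdc45 had 21.3, 22.0 and 21.0 CPM in Cysltr1-/- and 21.0, 21.5 and 25.0 CPM in WT libraries with EMT6 medium. For Cdc45 the levels were 12.1, 12.5 and 12.4 CPM in Cysltr1-/- and 23.8, 24.2 and 22.8 CPM in WT with IL-6, and 16.4, 18.0 and 18.1 CPM in Cysltr1-/- and 32.0, 29.0 and 29.6 CPM in WT with GM-CSF alone. The genotypes of Cdc45 overlapped with EMT6 medium. Gins1 had 7.78, 8.90 and 8.08 CPM in Cysltr1-/- and 6.08, 5.31 and 5.62 CPM in WT libraries with EMT6 medium. For Gins1 the levels were 5.11, 5.49 and 5.14 CPM in Cysltr1-/- and 6.92, 6.74 and 6.71 CPM in WT with IL-6, and 6.51, 6.99 and 6.74 CPM in Cysltr1-/- and 8.78, 8.56 and 9.27 CPM in WT with GM-CSF alone. For Gins1, as for Mcm10 before any background is taken off, the Cysltr1-/- libraries were the higher ones with EMT6 medium.

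PCNA is the sliding clamp that tethers polymerases, and RFC1 to RFC5 load it. Pcna had 48.8, 59.4 and 57.0 CPM in Cysltr1-/- and 73.9, 73.9 and 70.3 CPM in WT libraries with EMT6 medium. For Pcna the levels were 83.4, 80.2 and 83.2 CPM in Cysltr1-/- and 91.0, 94.9 and 91.4 CPM in WT with IL-6, and 97.3, 96.0 and 96.5 CPM in Cysltr1-/- and 127, 126 and 134 CPM in WT with GM-CSF alone. Pcna was lower in every Cysltr1-/- library than in WT of the same culture. Rfc2 had 68.5, 70.2 and 74.0 CPM in Cysltr1-/- and 93.6, 97.2 and 90.7 CPM in WT libraries with EMT6 medium. For Rfc2 the levels were 55.1, 55.8 and 56.5 CPM in Cysltr1-/- and 69.5, 72.1 and 69.4 CPM in WT with IL-6, and 53.5, 56.3 and 55.7 CPM in Cysltr1-/- and 94.0, 90.1 and 88.1 CPM in WT with GM-CSF alone. Rfc2 is a small subunit of the loader, and its Cysltr1-/- libraries were below WT in each culture. Rfc1 had 46.5, 48.1 and 44.5 CPM in Cysltr1-/- and 51.5, 45.5 and 50.3 CPM in WT libraries with EMT6 medium. For Rfc1 the levels were 69.4, 68.6 and 65.7 CPM in Cysltr1-/- and 86.3, 92.1 and 85.4 CPM in WT with IL-6, and 71.4, 68.0 and 67.4 CPM in Cysltr1-/- and 87.0, 93.8 and 88.1 CPM in WT with GM-CSF alone. For Rfc1, the large subunit of the loader, IL-6 and GM-CSF libraries of the same genotype overlapped. Rfc5 had 11.0, 11.0 and 10.7 CPM in Cysltr1-/- and 16.5, 15.9 and 14.1 CPM in WT libraries with EMT6 medium. For Rfc5 the levels were 14.7, 14.9 and 14.5 CPM in Cysltr1-/- and 19.1, 22.0 and 19.1 CPM in WT with IL-6, and 16.3, 17.0 and 18.8 CPM in Cysltr1-/- and 29.2, 29.4 and 28.2 CPM in WT with GM-CSF alone. Rfc5 was apart by genotype in each culture.

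Polymerase alpha and primase start each strand, and POLA2 is the accessory subunit of the polymerase. Pola2 had 33.3, 33.1 and 34.7 CPM in Cysltr1-/- and 38.4, 39.1 and 38.1 CPM in WT libraries with EMT6 medium. For Pola2 the levels were 30.9, 29.1 and 31.7 CPM in Cysltr1-/- and 43.9, 46.1 and 41.7 CPM in WT with IL-6, and 35.2, 35.4 and 32.2 CPM in Cysltr1-/- and 51.3, 52.2 and 46.9 CPM in WT with GM-CSF alone. Its genotypes were apart in each culture. POLD1 is the catalytic subunit of polymerase delta, which makes the lagging strand, and POLE that of polymerase epsilon, which makes the leading strand. Pold1 had 29.0, 24.7 and 25.2 CPM in Cysltr1-/- and 38.8, 38.4 and 38.2 CPM in WT libraries with EMT6 medium. For Pold1 the levels were 50.1, 52.5 and 48.7 CPM in Cysltr1-/- and 68.9, 74.6 and 66.5 CPM in WT with IL-6, and 57.9, 57.7 and 57.3 CPM in Cysltr1-/- and 95.3, 102 and 88.5 CPM in WT with GM-CSF alone. Pold1 was lower in Cysltr1-/- libraries in all cultures. Pole had 25.3, 23.9 and 27.7 CPM in Cysltr1-/- and 20.8, 22.0 and 20.2 CPM in WT libraries with EMT6 medium. For Pole the levels were 12.6, 11.7 and 11.8 CPM in Cysltr1-/- and 18.5, 19.6 and 20.1 CPM in WT with IL-6, and 15.2, 15.1 and 15.5 CPM in Cysltr1-/- and 26.3, 28.2 and 25.4 CPM in WT with GM-CSF alone. Pole was lower in Cysltr1-/- libraries with IL-6 or GM-CSF alone and higher with EMT6 medium. It has 11160 exon bases and no background was taken off, so the separation of its libraries with EMT6 medium is uncertain. Pole2 had 6.74, 4.93 and 7.18 CPM in Cysltr1-/- and 4.48, 4.21 and 4.87 CPM in WT libraries with EMT6 medium. For Pole2 the levels were 6.91, 7.04 and 7.16 CPM in Cysltr1-/- and 6.70, 7.05 and 7.19 CPM in WT with IL-6, and 6.69, 6.58 and 5.94 CPM in Cysltr1-/- and 5.92, 5.79 and 5.84 CPM in WT with GM-CSF alone. Pole2, a subunit of polymerase epsilon, overlapped between genotypes with IL-6, and its Cysltr1-/- libraries lay above all WT libraries in the other cultures, by narrow margins. With EMT6 medium this too is before any background is taken off.

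RRM1 and RRM2 form ribonucleotide reductase, the rate-limiting enzyme of deoxynucleotide synthesis. Rrm1 had 62.5, 58.8 and 58.7 CPM in Cysltr1-/- and 60.1, 61.1 and 59.8 CPM in WT libraries with EMT6 medium. For Rrm1 the levels were 47.8, 49.6 and 49.6 CPM in Cysltr1-/- and 68.9, 70.2 and 68.5 CPM in WT with IL-6, and 62.9, 59.9 and 58.2 CPM in Cysltr1-/- and 112, 117 and 122 CPM in WT with GM-CSF alone. Rrm1 overlapped between genotypes with EMT6 medium. Rrm2 had 19.3, 21.8 and 19.6 CPM in Cysltr1-/- and 27.0, 26.1 and 28.0 CPM in WT libraries with EMT6 medium. For Rrm2 the levels were 16.0, 17.4 and 14.6 CPM in Cysltr1-/- and 33.0, 32.2 and 30.8 CPM in WT with IL-6, and 22.4, 23.4 and 24.5 CPM in Cysltr1-/- and 65.0, 66.3 and 61.4 CPM in WT with GM-CSF alone. Both were highest in WT libraries with GM-CSF alone, and their genotypes were apart with IL-6 and with GM-CSF alone. Of the thymidine nucleotide enzymes, TK1 salvages thymidine, TYMS makes dTMP from dUMP, and DUT makes dUMP from dUTP. Tk1 had 17.9, 16.7 and 17.7 CPM in Cysltr1-/- and 14.2, 14.3 and 13.0 CPM in WT libraries with EMT6 medium. For Tk1 the levels were 10.5, 10.1 and 9.66 CPM in Cysltr1-/- and 13.0, 12.3 and 12.8 CPM in WT with IL-6, and 13.8, 10.8 and 13.2 CPM in Cysltr1-/- and 31.1, 30.0 and 28.5 CPM in WT with GM-CSF alone. Tk1 was lower in Cysltr1-/- libraries except with EMT6 medium, where it was higher. Tyms had 10.7, 8.97 and 11.4 CPM in Cysltr1-/- and 6.37, 8.91 and 7.84 CPM in WT libraries with EMT6 medium. For Tyms the levels were 16.3, 16.6 and 16.0 CPM in Cysltr1-/- and 13.2, 11.8 and 12.0 CPM in WT with IL-6, and 17.4, 16.8 and 17.4 CPM in Cysltr1-/- and 14.4, 14.3 and 11.9 CPM in WT with GM-CSF alone. Every Cysltr1-/- library had more Tyms than every WT library of its culture, but with EMT6 medium only by 8.97 against 8.91 CPM. Tyms has 6089 exon bases and no background was taken off, so its separation with EMT6 medium is uncertain. Dut had 26.3, 24.6 and 25.6 CPM in Cysltr1-/- and 30.8, 31.3 and 30.5 CPM in WT libraries with EMT6 medium. For Dut the levels were 43.4, 42.7 and 44.9 CPM in Cysltr1-/- and 39.2, 42.5 and 38.1 CPM in WT with IL-6, and 46.0, 46.8 and 46.3 CPM in Cysltr1-/- and 51.5, 49.3 and 55.1 CPM in WT with GM-CSF alone. Dut was higher in Cysltr1-/- libraries with IL-6 only, by a narrow margin, and lower in the other cultures.

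RPA1 is the large subunit of the complex that coats single-stranded DNA. Rpa1 had 48.4, 48.4 and 49.1 CPM in Cysltr1-/- and 76.0, 71.0 and 70.3 CPM in WT libraries with EMT6 medium. For Rpa1 the levels were 67.4, 63.4 and 61.8 CPM in Cysltr1-/- and 88.0, 92.6 and 82.9 CPM in WT with IL-6, and 69.3, 66.5 and 70.4 CPM in Cysltr1-/- and 115, 120.4 and 113 CPM in WT with GM-CSF alone. The genotypes of Rpa1 overlapped in no culture. Rpa2 had 20.5, 19.7 and 17.6 CPM in Cysltr1-/- and 21.4, 21.9 and 21.9 CPM in WT libraries with EMT6 medium. For Rpa2 the levels were 13.5, 14.8 and 16.3 CPM in Cysltr1-/- and 21.3, 22.3 and 20.2 CPM in WT with IL-6, and 22.4, 22.7 and 24.0 CPM in Cysltr1-/- and 30.3, 29.4 and 30.2 CPM in WT with GM-CSF alone. Both were lower in Cysltr1-/- than in WT libraries of each culture. LIG1 seals Okazaki fragments after FEN1 has cut their flaps. Lig1 had 24.7, 28.3 and 25.2 CPM in Cysltr1-/- and 36.7, 33.9 and 35.4 CPM in WT libraries with EMT6 medium. For Lig1 the levels were 18.3, 20.6 and 20.2 CPM in Cysltr1-/- and 38.2, 36.4 and 35.9 CPM in WT with IL-6, and 26.3, 24.2 and 25.5 CPM in Cysltr1-/- and 63.0, 63.7 and 59.2 CPM in WT with GM-CSF alone. Lig1 was apart by genotype throughout. Fen1 had 1.86, 1.35 and 1.74 CPM in Cysltr1-/- and 1.98, 1.83 and 2.28 CPM in WT libraries with EMT6 medium. For Fen1 the levels were 1.80, 1.36 and 2.33 CPM in Cysltr1-/- and 2.28, 2.12 and 1.86 CPM in WT with IL-6, and 3.41, 2.40 and 2.60 CPM in Cysltr1-/- and 4.22, 4.40 and 4.38 CPM in WT with GM-CSF alone. Fen1, the member with the fewest reads, was so with GM-CSF alone. CHAF1A and CHAF1B are subunits of the factor that deposits histones H3 and H4 behind the fork. Chaf1a had 18.5, 14.7 and 13.7 CPM in Cysltr1-/- and 13.4, 13.5 and 13.4 CPM in WT libraries with EMT6 medium. For Chaf1a the levels were 12.7, 12.5 and 13.6 CPM in Cysltr1-/- and 18.3, 20.2 and 20.0 CPM in WT with IL-6, and 16.7, 14.9 and 16.5 CPM in Cysltr1-/- and 33.2, 32.0 and 31.2 CPM in WT with GM-CSF alone. Chaf1a was lower in Cysltr1-/- libraries with IL-6 or GM-CSF alone. With EMT6 medium its Cysltr1-/- libraries were higher, but narrowly so at 13.7 CPM in Cysltr1-/- against 13.5 CPM in WT. Chaf1a has 8854 exon bases and no background was taken off, so this order with EMT6 medium is uncertain. Chaf1b had 14.7, 15.7 and 17.1 CPM in Cysltr1-/- and 21.9, 21.9 and 23.3 CPM in WT libraries with EMT6 medium. For Chaf1b the levels were 12.7, 11.9 and 14.6 CPM in Cysltr1-/- and 14.4, 15.9 and 15.9 CPM in WT with IL-6, and 13.3, 14.3 and 13.9 CPM in Cysltr1-/- and 20.1, 18.9 and 20.0 CPM in WT with GM-CSF alone. Chaf1b had its highest values in WT with EMT6 medium.

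The effect of the labelled genotype with GM-CSF alone was a lower level of nearly the whole replication set. Of the 42 genes, 40 fell, 1 rose (Tyms) and 1 was not called (Pole2) by edgeR's quasi-likelihood test at an adjusted p under 0.05, where 17.2% of all 28334 genes tested fell and 10.1% rose. Of the 13266 genes at 5 CPM or more in at least 1 group, called expressed genes below, 33.7% fell and 17.0% rose. The median log2 fold change was -0.72 for the members, 0.04 for all genes tested and -0.06 for expressed genes. The 3 lowest, given with their place in GRCm38 from GENCODE M21, were Rrm2 (chr12:24708241-24714146, plus strand) at -1.45 ± 0.06, Mcm5 (chr8:75109569-75128439, plus strand) at -1.36 ± 0.06 and Lig1 (chr7:13277283-13311433, plus strand) at -1.29 ± 0.06 (log2 fold change ± SE, adjusted p = 3.36e-28, 1.96e-27 and 3.47e-26 by edgeR). A total of 8 members fell at least 2-fold. They were Rrm2, Mcm5, Lig1, Mcm7 (-1.28 ± 0.06), Tk1 (-1.25 ± 0.08), Cdc6 (-1.20 ± 0.09), Mcm6 (-1.08 ± 0.06) and Chaf1a (a change of -50.1%). Every role had members that fell: all 6 of the helicase core (median -1.01), all 4 of licensing (-0.61), all 6 of helicase activation (-0.65), all 6 of clamp and loader (-0.57), all 4 of polymerase alpha and primase (-0.56), 3 of 4 of polymerases delta and epsilon (-0.46), 4 of 5 of deoxynucleotide supply (-0.95), and all members of the 3 remaining roles. The 3 at the other end were Dut at -0.17 ± 0.06, Pole2 at 0.14 ± 0.12 (adjusted p = 0.471) and Tyms (chr5:30058202-30073617, minus strand) at 0.36 ± 0.09 (adjusted p = 0.00107 by edgeR). The members not listed above in all 18 libraries lay between Mcm4 at -0.95 ± 0.05 and Pold2 at -0.19 ± 0.07; they are also Mcm2, Gins2, Gins3, Rfc3, Rfc4, Pola1, Prim1, Prim2, Rpa3 and Orc6. In 38 members all Cysltr1-/- libraries lay below all WT libraries, which was so for 20.6% of all genes.

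The calls of these 8 and of Tyms held under every scaling, filter and tool tried and without any 1 library, and the number of members that fell was 36 to 40. The calls of Dut, Pold2, Rfc3 and Fen1 were lost when 1 library was left out. Dut was lost without Cysltr1-/- replicate 1 (-0.17) or WT replicate 3 (-0.13), Pold2 without Cysltr1-/- replicate 2 (-0.13), Fen1 without Cysltr1-/- replicate 2 (-0.51), and Rfc3 without Cysltr1-/- replicate 1 (-0.22), Cysltr1-/- replicate 3 (-0.22) or WT replicate 1 (-0.16).

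With IL-6, most of the set was again lower in Cysltr1-/- than in WT libraries. Of the 42 genes, 33 fell, 1 rose (Tyms) and 8 were not called, where 18.3% of all genes fell and 12.1% rose. Of expressed genes 36.5% fell and 15.5% rose. The median log2 fold change was -0.45 for the members, 0.09 for all genes and -0.08 for expressed genes. The lowest were Rrm2 with a change of -50.1%, Mcm5 at -0.99 ± 0.07 and Cdc45 at -0.93 ± 0.08 (adjusted p = 1.10e-18, 1.71e-19 and 7.65e-16 by edgeR). Pole2 at 0.01 ± 0.12 and Dut at 0.13 ± 0.06 were not called, with adjusted p = 0.956 and 0.0768, and Tyms was 0.40 ± 0.09 (adjusted p = 3.37e-04 by edgeR). All 6 core genes fell (median -0.66), as did all 4 of polymerase alpha and primase (median -0.51), while 2 of 4 licensing genes (Cdc6 at -0.81 ± 0.11 and Cdt1 at -0.54 ± 0.06) and 2 of 4 genes of polymerases delta and epsilon (Pole at -0.69 ± 0.08 and Pold1 at -0.47 ± 0.06) did. All Cysltr1-/- libraries lay below all WT libraries in 32 members, against 22.9% of all genes. Library size alone in place of TMM, which shifted the median of all genes by 0.14, left 26 members that fell and 2 that rose, Dut being added at 0.28. Dut was also called higher without WT replicate 2 (0.18), which made the number that rose 2. The call of Pcna was lost without Cysltr1-/- replicate 2 (-0.15) or WT replicate 2 (-0.15), and those of Chaf1b, Gins2 and Rpa3 without any of 4, 5 and 4 of the 6 libraries.

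**Figure D3:**
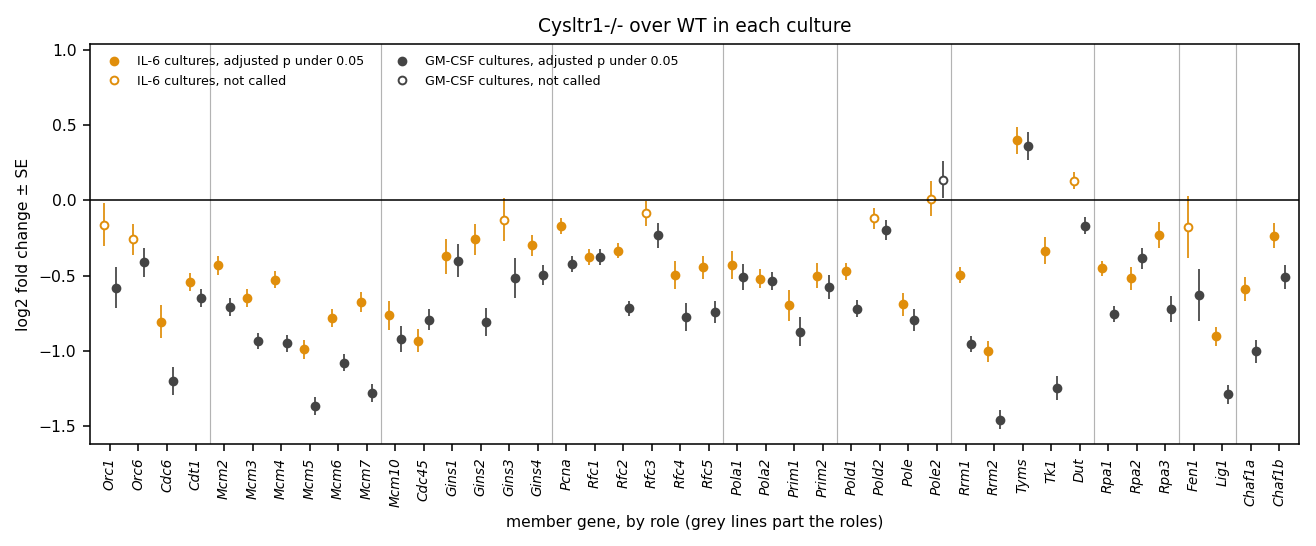
Log2 fold change of each replication gene in Cysltr1-/- over WT libraries (y axis) with IL-6 (orange) and with GM-CSF alone (dark), by role; bars are the SE of the edgeR fit, filled points have an adjusted p under 0.05 and open points do not. Nearly all points lie below 0, Rrm2 and Mcm5 lie lowest in both cultures, and Tyms lies above 0 in both cultures.

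In Cysltr1-/- marrow 25 of the 42 genes fell with IL-6 and 0 rose by edgeR, also at an unadjusted p under 0.05, where 8.88% of all genes fell and 5.56% rose. Of expressed genes 18.1% fell and 10.3% rose. The median log2 fold change was -0.28 for the members and 0.02 for all genes. Rpa2 at -0.63 ± 0.07, Cdc6 at -0.61 ± 0.11 and Fen1 at -0.61 ± 0.20 were the lowest (adjusted p = 8.80e-10, 2.83e-05 and 0.0262 by edgeR). Rfc1 at -0.02 ± 0.05, Rfc2 at 0.02 ± 0.05 and Pole2 at 0.13 ± 0.12 were at the other end and were not called (adjusted p = 0.861, 0.899 and 0.587). Of the core, 5 of 6 fell, Mcm4 at -0.13 ± 0.06 being the exception (adjusted p = 0.129). All IL-6 libraries lay below all GM-CSF libraries in 32 members, against 16.6% of all genes. Leaving out any of the 6 libraries left 19 to 22 members that fell, and 11 of the calls were lost in at least 1 of these fits. Fen1 lost its call without GM-CSF replicate 1 (-0.43) or without IL-6 replicate 1 (-0.59) or 2 (-0.44). The DESeq2 test called 30 lower and 0 higher.

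With IL-6 in WT marrow, replication genes were lower as well. Of the 42 genes, 39 fell and 0 rose by edgeR, where 11.3% of all genes fell and 10.3% rose, and 21.5% of expressed genes fell and 20.4% rose. At an unadjusted p under 0.05 edgeR gave 1 member higher, Pole2, and DESeq2 called 0 higher at its adjusted threshold. The 3 members not called were Pole2 at 0.25 ± 0.12, Rfc1 at -0.03 ± 0.05 and Tyms at -0.12 ± 0.09 (adjusted p = 0.136, 0.819 and 0.468). The lowest were Tk1 at -1.23 ± 0.08, Fen1 at -1.06 ± 0.18 and Mcm7 at -1.02 ± 0.06 (adjusted p = 2.14e-20, 3.56e-06 and 3.49e-22 by edgeR). The median log2 fold change was -0.48 for the members and -0.03 for all genes. The core had a median of -0.77, deoxynucleotide supply -0.76, licensing -0.46 and the clamp and its loader -0.37. In 39 members all IL-6 libraries lay below all GM-CSF libraries, against 16.4% of all genes. The count that fell was 38 or 39 under each scaling, filter, tool and left-out library. Pola2 (-0.19 ± 0.06) lost its call without WT GM-CSF replicate 1 (-0.17) or WT IL-6 replicate 3 (-0.15).

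**Figure D4:**
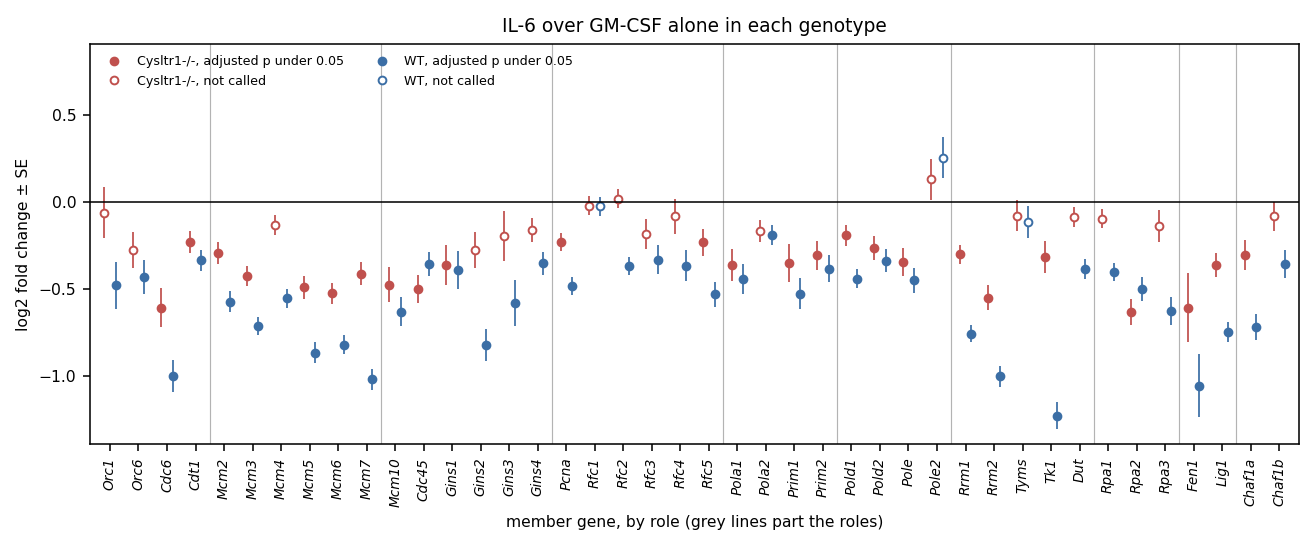
Log2 fold change of each replication gene with IL-6 over GM-CSF alone (y axis) in Cysltr1-/- (red) and WT (blue) libraries, by role; bars are the SE of the edgeR fit, filled points have an adjusted p under 0.05 and open points do not. The WT points lie lower than the Cysltr1-/- points for the core genes, Rrm1, Rrm2 and Tk1.

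The IL-6 effect differed between the genotypes for part of the set. In the test of that difference, 18 of the 42 genes had a higher log2 fold change with IL-6 in Cysltr1-/- than in WT and 0 a lower one, where 3% of all genes were called higher and 4.52% lower (expressed genes, 5.84% higher and 9.51% lower). The 0 held for edgeR also at an unadjusted p under 0.05, and for DESeq2. The 3 with the smallest p were Tk1, whose IL-6 effect was -0.32 ± 0.09 in Cysltr1-/- and -1.23 ± 0.08 in WT (difference 0.91 ± 0.12, adjusted p = 4.51e-08), Mcm7 at -0.41 ± 0.07 and -1.02 ± 0.06 (difference 0.61 ± 0.09, adjusted p = 7.26e-07) and Rrm1 at -0.30 ± 0.05 and -0.76 ± 0.05 (difference 0.46 ± 0.07, adjusted p = 6.38e-06, all by edgeR). All 6 core genes and 4 of 5 deoxynucleotide genes were among the 18, and none of licensing or of polymerase alpha and primase was. The WT GM-CSF libraries, the highest group, enter this difference and both genotype and IL-6 effects above, so these comparisons share libraries. Leaving out 1 library gave 13 to 19 members, and 6 of the calls were lost in at least 1 of these fits. The core gene Mcm3 lost its call without WT IL-6 replicate 1 (0.27), Mcm6 without Cysltr1-/- GM-CSF replicate 1 (0.28), Cysltr1-/- IL-6 replicate 2 (0.27) or WT IL-6 replicate 3 (0.26), and Mcm2 in 5 fits, at 0.22 to 0.28. The others were Chaf1a, Pcna and Pold1.

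EMT6 medium results depended on the scaling. On library size alone the median log2 fold change over all genes moved by 0.61 in Cysltr1-/- and by 0.49 in WT, and with DESeq2 size factors by -0.27 in Cysltr1-/- and -0.14 in WT. The background expected from reads in no annotated feature, per exon length, was a large part of some members there, at 77.3% of the level of Fen1 in Cysltr1-/- and 35.0% in WT, and at 37.9% of Pola1 in Cysltr1-/- and 25.0% in WT. Marker sums moved with EMT6 medium as well. Myeloid markers had 2054 to 2362 CPM in Cysltr1-/- and 4952 to 5213 CPM in WT libraries with it. Progenitor markers had 146 to 154 CPM in Cysltr1-/- and 142 to 148 CPM in WT. The progenitor markers did not move as 1, since against GM-CSF alone 4 of the 6 were called lower and 2 higher in each genotype. The part of these markers was not tested.

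In Cysltr1-/- marrow the direction of the EMT6 medium effect on the set depended on the scaling. On TMM scaling 21 members fell and 11 rose, where 32.8% of all genes fell and 54.3% rose. Of expressed genes 61.5% fell and 28.9% rose. The median was -0.18 for the members, 0.83 for all genes and -0.49 for expressed genes, so that the members lay below all genes and above expressed genes. On library size alone 4 fell and 30 rose. Leaving out any 1 of the 6 libraries gave 26 to 29 that fell and 5 to 7 that rose. Each of these fits also moved the median log2 fold change of all genes, by -0.20 to -0.23. The part of this shift in the counts and in lost calls was not tested. Pold1 at -1.12 ± 0.07, Dut at -0.86 ± 0.06 and Pcna at -0.82 ± 0.06 were lowest, and Mcm10 at 0.73 ± 0.09, Pole at 0.75 ± 0.08 and Orc1 at 0.90 ± 0.14 highest (adjusted p = 2.48e-23, 1.06e-18, 6.69e-20, 2.19e-10, 2.42e-13 and 5.59e-08 by edgeR), and these 6 kept their direction under every alternative. By role the licensing genes Orc1, Cdt1 (0.54 ± 0.06) and Cdc6 (0.43 ± 0.11) rose while Orc6 (-0.48 ± 0.11) and all 6 core genes fell on TMM scaling, with Mcm4, Mcm5, Mcm7 and Orc6 turning to 0.31, 0.30, 0.21 and 0.13 on library size alone. The call of Cdc6 was lost without EMT6 replicate 2 (0.16) or 3 (0.20), or without GM-CSF replicate 1 (0.25), 2 (0.20) or 3 (0.17).

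In WT marrow 37 of the 42 genes fell with EMT6 medium on TMM scaling and 1 rose (Chaf1b), where 34.5% of all genes fell and 46.8% rose, and 64.1% of expressed genes fell and 26.0% rose. The median was -0.73 for the members, 0.49 for all genes and -0.48 for expressed genes. On library size alone 24 members fell and 9 rose. The lowest were Mcm5 at -1.49 ± 0.06, Mcm6 at -1.42 ± 0.06 and Mcm3 at -1.35 ± 0.06 (adjusted p = 5.16e-30, 5.95e-31 and 3.06e-30 by edgeR), and all 6 core genes fell under every scaling. At the other end stood Rfc2 at 0.05 ± 0.05 and Orc1 at 0.11 ± 0.13, which were not called, and Chaf1b at 0.18 ± 0.08. The call of Chaf1b was lost without WT EMT6 replicate 1 (0.06) or 3 (0.14), or without WT GM-CSF replicate 1 (0.08), 2 (0.03) or 3 (0.07). The fits without WT EMT6 replicate 1 or any WT GM-CSF replicate also moved the median of all genes, by -0.12 to -0.14. Cdt1 was -0.05 ± 0.06 on TMM scaling and 0.44 on library size alone, so that its direction depended on the scaling.

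With EMT6 medium the genotype effect on the set was mixed on TMM scaling. Of the 42 genes, 19 fell and 7 rose in Cysltr1-/- relative to WT, where 19.8% of all genes fell and 32.4% rose. Of expressed genes 39.9% fell and 24.5% rose, so that the members' count that fell is near that of expressed genes. The median was -0.19 for the members, 0.27 for all genes and -0.10 for expressed genes. Rpa1 at -0.58 ± 0.06, Pold1 at -0.54 ± 0.07 and Rfc5 at -0.51 ± 0.09 were lowest, and Tyms at 0.44 ± 0.11, Pole2 at 0.48 ± 0.14 and Gins1 at 0.53 ± 0.12 highest (adjusted p = 1.23e-12, 1.97e-09, 5.61e-06, 9.15e-04, 0.00275 and 2.15e-04 by edgeR). On library size alone 11 fell and 14 rose. The number that rose was 3 without Cysltr1-/- replicate 1, 1 without Cysltr1-/- replicate 3 and 2 without WT replicate 1. These fits also moved the median of all genes, by -0.09 to -0.11. The call of Tyms was lost without Cysltr1-/- replicate 3 (0.28) or WT replicate 1 (0.21), and that of Pole2 without Cysltr1-/- replicate 1 (0.32), Cysltr1-/- replicate 3 (0.29) or WT replicate 1 (0.37).

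The difference of the EMT6 medium effect between genotypes was called for 25 of the 42 genes, in all of them higher in Cysltr1-/-, and for 0 in the other direction, where 13.3% of all genes were called higher and 12.4% lower (expressed genes, 21.6% higher and 25.4% lower). In that other direction edgeR gave 0 also at an unadjusted p under 0.05, and DESeq2 called 1. The 3 with the smallest p were Tk1 (difference 1.58 ± 0.12, adjusted p = 3.95e-17), Rrm1 (0.95 ± 0.08, 4.44e-16) and Mcm5 (1.17 ± 0.09, 9.40e-16 by edgeR). With EMT6 medium Tk1 was at 17.9, 16.7 and 17.7 CPM in Cysltr1-/- and 14.2, 14.3 and 13.0 CPM in WT, so that its genotypes stood in the reverse order of the GM-CSF libraries. This difference shares the GM-CSF libraries with the difference for IL-6. Against IL-6 in place of GM-CSF, EMT6 medium gave 21 members higher and 12 lower in Cysltr1-/- (all genes, 53.8% higher and 32.4% lower) and 7 higher and 23 lower in WT (all genes, 48.1% higher and 33.7% lower). Of expressed genes, 29.1% were higher and 61.2% lower in Cysltr1-/-, and 26.3% were higher and 62.9% lower in WT. On library size alone these counts were 35 higher and 2 lower in Cysltr1-/-, and 27 higher and 4 lower in WT. The number higher in Cysltr1-/- fell to 10 without EMT6 replicate 2 and to 11 without EMT6 replicate 1 or 3 of that genotype. These fits also moved the median of all genes, by -0.21 to -0.22.

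A ratio between roles within a library does not depend on the scaling. The counts of the 4 licensing genes over those of the 6 core genes were 0.543 ± 0.0200 in Cysltr1-/- and 0.441 ± 0.0174 in WT libraries with EMT6 medium, 0.300 ± 0.0236 in Cysltr1-/- and 0.267 ± 0.00754 in WT with IL-6, and 0.279 ± 0.00554 in Cysltr1-/- and 0.216 ± 0.00343 in WT with GM-CSF alone (SD, n = 3 each). Every library with EMT6 medium had a higher ratio than every other library, and every Cysltr1-/- library had a higher ratio than every WT library of its culture. With IL-6 the genotypes were barely apart, the lowest ratio in Cysltr1-/- being 0.278 and the highest in WT 0.274. Most licensing counts were those of Cdt1, so that the ratio chiefly follows this gene. After subtraction of the background estimate the ratios were 0.545 in Cysltr1-/- and 0.438 in WT with EMT6 medium and 0.275 in Cysltr1-/- and 0.214 in WT with GM-CSF alone. With IL-6 they were then 0.295 in Cysltr1-/- and 0.265 in WT. The core took 17.1% ± 0.290 of all member counts in Cysltr1-/- and 18.7% ± 0.511 in WT with EMT6 medium, and 20.9% ± 0.226 in Cysltr1-/- and 25.8% ± 0.167 in WT with GM-CSF alone.

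**Figure D5:**
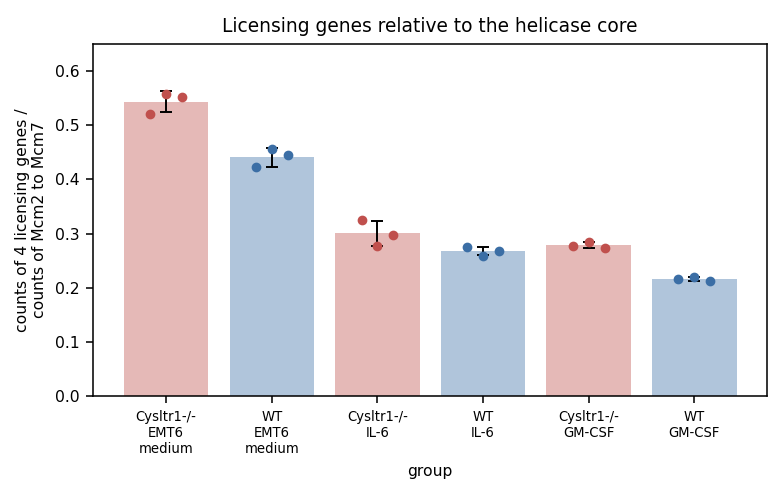
Counts of the licensing genes Orc1, Orc6, Cdc6 and Cdt1 divided by counts of Mcm2 to Mcm7 (y axis) in each library (points), with the mean (bar) and SD of 3 libraries per group. The ratio is highest with EMT6 medium, at 0.543 in Cysltr1-/- and 0.441 in WT, and lowest in WT with GM-CSF alone, at 0.216.

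Other genes of replication come from 3 lists of related function, whose counts stand beside those of expressed genes: with EMT6 medium 61.5% of these fell in Cysltr1-/- and 64.1% in WT. With IL-6, 18.1% of expressed genes fell in Cysltr1-/- and 21.5% in WT, and by genotype with GM-CSF alone 33.7% did. Of 35 further licensing and fork genes, 21 fell and 5 rose in Cysltr1-/- relative to WT with GM-CSF alone. With IL-6, 18 of them fell and 0 rose in Cysltr1-/- (median -0.19), 1 being higher at an unadjusted p under 0.05 by edgeR, and 18 fell and 5 rose in WT (median -0.39). With EMT6 medium 16 fell and 9 rose in Cysltr1-/- (median -0.06) and 29 fell and 2 rose in WT (median -0.60), on TMM scaling, where expressed genes had a median of -0.49 in Cysltr1-/- and -0.48 in WT. With IL-6 in Cysltr1-/- the smallest p values were those of Dna2, a helicase and nuclease (-0.45 ± 0.06), the histone chaperone Asf1b (-0.60 ± 0.09) and Uhrf1, which guides maintenance DNA methylation (-0.54 ± 0.08). In WT they were those of Uhrf1 (-1.13 ± 0.07), Pclaf, a PCNA-binding factor (-1.31 ± 0.08), and Rnaseh2c, a subunit of RNase H2 (-0.80 ± 0.06). With EMT6 medium they were those of the MCM-binding protein Mcmbp (-1.15 ± 0.05), Dna2 (-1.46 ± 0.07) and Poldip2 (-1.26 ± 0.06) in Cysltr1-/-, and of Dna2 (-2.17 ± 0.07), Mcmbp (-0.95 ± 0.05) and the origin firing factor Topbp1 (-0.96 ± 0.06) in WT.

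Of 25 regulators of S phase entry, 14 fell and 1 rose with IL-6 in Cysltr1-/- (median -0.24), and 14 fell and 1 rose in WT (median -0.17). With EMT6 medium 19 fell and 4 rose in Cysltr1-/- (median -0.76) and 22 fell and 3 rose in WT (median -1.08), where most expressed genes fell too (61.5% in Cysltr1-/- and 64.1% in WT). IL-6 gave its smallest p values for Myc (-0.44 ± 0.05), the S phase cyclin Ccna2 (-0.52 ± 0.07) and the G1 cyclin Ccnd1 (-0.47 ± 0.07) in Cysltr1-/-, and for Ccna2 (-0.72 ± 0.05), the transcription factor Mybl2 (-0.87 ± 0.09) and Rb1, the restrainer of E2F factors, which rose (0.41 ± 0.05), in WT. EMT6 medium gave them for Myc (-2.61 ± 0.06), the G1 cyclin Ccnd2 (-2.33 ± 0.06) and its kinase Cdk4 (-1.55 ± 0.05) in Cysltr1-/-, and for Myc (-2.37 ± 0.06) and the G1 cyclins Ccnd3 (-1.50 ± 0.05) and Ccnd1 (-2.40 ± 0.08) in WT. Of 12 further nucleotide genes, 6 fell and 0 rose with IL-6 in Cysltr1-/- (median -0.15), 1 being higher at an unadjusted p under 0.05 by edgeR, and 7 fell and 1 rose in WT (median -0.39). With EMT6 medium 9 fell and 1 rose in Cysltr1-/- (median -0.70) and 11 fell and 1 rose in WT (median -0.76), against falls in 61.5% of expressed genes in Cysltr1-/- and 64.1% in WT. With IL-6 in Cysltr1-/- the smallest p values were those of Dctpp1 (-0.35 ± 0.06), Shmt1, an enzyme of folate metabolism (-0.42 ± 0.10), and Samhd1, which breaks down dNTPs (-0.21 ± 0.05). Rrm2b, a small subunit of ribonucleotide reductase induced by p53, was the 1 that rose with IL-6 in WT (0.59 ± 0.07), beside falls of Nme1 (-0.73 ± 0.08), a nucleoside diphosphate kinase, and Dctpp1 (-0.49 ± 0.06), a pyrophosphatase of dCTP. With EMT6 medium Samhd1 (-0.72 ± 0.05) and Dctpp1 (-0.85 ± 0.07) fell in Cysltr1-/-, and Samhd1 (-1.02 ± 0.05) and the thymidylate kinase Dtymk (-0.92 ± 0.07) fell in WT.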

How the data were processed

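Poly(A) RNA of 18 bone marrow cultures was sequenced, 3 libraries in each of 6 groups of labelled genotype and culture. The files hold raw counts per gene that the authors deposited, 1 file per library; HISAT2 2.1.0, HTSeq 0.13.5 and the build mm10 are named per the submitters' processing notes, while the annotation, the strand setting and any filter are not given in the sources used here. All 55536 gene IDs of the files occur in GENCODE M21, which gave symbols, coordinates and exon lengths; entries that name no gene stayed out of library sizes, as did 97 spike-in entries, which had 0 counts. Reads in no annotated feature were 14.2% to 50.2% of the total by group mean.

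The deposited counts were tested with edgeR 4.0.16 (R 4.3.3): TMM scaling, filterByExpr, a robust quasi-likelihood fit of 6 group means over all 18 libraries, and Benjamini-Hochberg adjustment over the 28334 genes kept. A gene was called at an adjusted p under 0.05. The common biological coefficient of variation was 0.0480. Replicate pairs differed by more than counting noise, with a chi-square per degree of freedom of 1.64 to 7.51. The fit was tested on simulated counts. The fit was repeated with the DESeq2 1.42.0 test, with size factors of DESeq2, with library size alone, with no filter, a mean of at least 5 CPM in 1 group, only the groups compared, the replicate number as a block, subtraction of a background equal to exon length times the density of reads in no feature, and leaving out each library. Deviations of same-numbered libraries correlated at -0.41 to 0.32, and those of other pairs at -0.30 to 0.43. These values cannot show whether a replicate number marks a shared pool.

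Values per library are given for the highest member of each role, the 3 lowest and 3 highest fold changes of each genotype, IL-6 and EMT6 comparison with GM-CSF or WT, and the 3 smallest p of each interaction; genes of other pathway lists are the 3 with the smallest p. One gene under this rule is not reported here. Members, lists and tests were chosen with earlier results of these data known. Promoters are those of RefSeq on GRCm38.p6. No protein sequence was used here.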

Additional observations from a re-analysis of the deposited data

Results flagged for a closer look

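The effect of IL-6 differed between the genotypes by the interaction test of edgeR for 18 of the 42 genes, in each of them with the higher log2 fold change in Cysltr1-/- libraries. Its 3 genes with the smallest p were Tk1 (difference 0.91), Mcm7 (0.61) and Rrm1 (0.46). The effect of EMT6 medium differed between the genotypes for 25 of the 42 genes, again with the higher log2 fold change in Cysltr1-/- libraries, led by Tk1 (1.58), Rrm1 (0.95) and Mcm5 (1.17). Both differences contain the genotype difference with GM-CSF alone, where Tk1 was -1.25 ± 0.08, Rrm1 -0.95 ± 0.05, Mcm7 -1.28 ± 0.06 and Mcm5 -1.36 ± 0.06.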

How the results depend on the processing

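No called result named for the genotype with GM-CSF alone or IL-6, or for IL-6, turned its direction under the alternatives run, and the counts of members that fell in these 4 comparisons stayed within 1.5 times. With IL-6 the number that rose by genotype was 2 in place of 1 after background subtraction, on library size alone, at a mean of 5 CPM, with no filter and with only the groups compared. The EMT6 medium results moved most. In Cysltr1-/- against GM-CSF, the 11 that rose became 5 with DESeq2 size factors, 5 with the DESeq2 test, 30 on library size alone, 20 at a mean of 5 CPM and 5 with no filter, and the 21 that fell became 4 on library size alone and 11 at a mean of 5 CPM. In WT, the 1 that rose became 3 after background subtraction, 0 with DESeq2 size factors, 0 with the DESeq2 test, 9 on library size alone, 5 at a mean of 5 CPM and 0 with no filter, and the 37 that fell became 24 on library size alone. Against IL-6 in Cysltr1-/-, the 21 that were higher became 10 with DESeq2 size factors, 11 with the DESeq2 test, 35 on library size alone and 9 with no filter, and the 12 that were lower became 19 with DESeq2 size factors, 19 with the DESeq2 test, 2 on library size alone, 5 at a mean of 5 CPM and 19 with no filter. Against IL-6 in WT, the 7 that were higher became 16 after background subtraction, 4 with DESeq2 size factors, 4 with the DESeq2 test, 27 on library size alone and 23 at a mean of 5 CPM, and the 23 that were lower became 15 after background subtraction, 4 on library size alone and 8 at a mean of 5 CPM. For the genotype with EMT6 medium, the 7 that rose became 3 with the DESeq2 test, 14 on library size alone and 2 with no filter, and the 19 that fell became 11 on library size alone and 29 with no filter. For the difference of the EMT6 effect between genotypes, the 0 that were lower became 1 with DESeq2 size factors, 1 with the DESeq2 test and 2 with no filter. The cause was not tested.

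Directions turned in these cases. Cdt1 with EMT6 medium in WT, -0.05 on TMM scaling, became 0.20 after background subtraction, 0.44 on library size alone and 0.35 at a mean of 5 CPM. In Cysltr1-/- with EMT6 medium, library size alone gave Mcm4 at 0.31, Mcm5 at 0.30, Mcm7 at 0.21 and Orc6 at 0.13, and a mean of 5 CPM gave Mcm4 at 0.029 and Mcm5 at 0.015. Against TMM, library size alone moved the median of all genes by 0.61 for EMT6 medium in Cysltr1-/-, 0.49 for it in WT and 0.24 for the genotype with EMT6 medium, by 0.14 for the genotype with IL-6 and by 0.12 with GM-CSF alone. The summed level of the 42 genes with EMT6 medium was 871 CPM in Cysltr1-/- and 1079 CPM in WT after background subtraction and 1362 CPM in Cysltr1-/- and 1348 CPM in WT on library size alone. With IL-6 it was 953 CPM in Cysltr1-/- after background subtraction, and 910.5 CPM in Cysltr1-/- and 1124 CPM in WT on library size alone. With GM-CSF alone it was 1134 CPM in Cysltr1-/- after background subtraction, and 1060 CPM in Cysltr1-/- and 1634 CPM in WT on library size alone.

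Leaving out 1 library gave 5 to 7 that rose and 26 to 29 that fell with EMT6 medium in Cysltr1-/-, 0 to 1 and 37 to 39 in WT, and 1 to 6 and 19 to 27 for the genotype with EMT6 medium. For EMT6 medium in Cysltr1-/- each such fit also moved the median of all genes, by -0.20 to -0.23, and the part of this shift was not tested. It gave 10 to 20 higher and 12 to 18 lower against IL-6 in Cysltr1-/-, and 6 to 7 and 21 to 25 in WT. The differences between genotypes had 22 to 26 higher and 0 to 1 lower for EMT6 medium and 13 to 19 higher for IL-6. The genotype gave 1 that rose and 38 to 40 that fell with GM-CSF alone, and 1 to 2 and 29 to 32 with IL-6, while IL-6 gave 19 to 22 that fell in Cysltr1-/- and 38 to 39 in WT. Of the called single-gene results, 30 were lost in at least 1 of these fits.

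Of the 18 libraries, 5 correlated best with one of their own replicate number, which does not show whether a number marks a shared pool. With the replicate number as a block, Gins2 for the genotype with IL-6 lost its call (-0.26), the other 281 of 282 single-gene results kept theirs, and no count of members moved by over 1.5 times. Genes that a stricter filter removed have no value under it. Depth limits Fen1 most, at 18 to 120 counts per library. The 3 libraries of a group limit the precision of every SD.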
